A study of Mus musculus with 18 samples.

Results

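The comparison described here is that of a C2C12 line making firefly luciferase with the same line left uninduced. C2C12 is an established mouse myoblast line, derived from muscle satellite cells and able to fuse into myotubes. The members are 6 of the 18 RNA-seq libraries in the series, taken by their labels: 3 from Luc2A cells given doxycycline at 2 µg/ml for 36 h and 3 from Luc2A cells harvested at the same time without it. Each library came from a separate culture, and all cultures grew in DMEM with 10% fetal bovine serum and puromycin, which selects for the transgene. The other 12 libraries came from clonal lines with codon-altered mouse Dux or human DUX4 in place of luciferase, with and without doxycycline in the same way. Luciferase has no known role in mouse cells, so this line is the control for the drug and for the making of a transgene protein. Both come together in it, and the effect of doxycycline cannot be told apart from that of luciferase. The line is 1 clone, so clone and transgene cannot be told apart either. The luciferase transcript was not analysed here, and its induction was not measured.

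In such a line a drug-responsive activator switches on the transgene when doxycycline is added. Doxycycline belongs to the tetracyclines, antibiotics that bind bacterial ribosomes and are known to slow protein synthesis on the related ribosomes of mitochondria. Cells whose mitochondria are disturbed commonly switch on genes of the transcription factor ATF4, which raises amino acid synthesis, amino acid import and tRNA charging. Proliferating myoblasts keep high levels of genes for DNA replication and mitosis, and growing cells make cholesterol under control of the transcription factor SREBP2. These statements are background and were not tested here.

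The libraries held 15811645, 15244162 and 16500391 counts with doxycycline and 17179642, 16372351 and 14418920 counts without it. Between 14873 and 15082 genes had at least 1 count in a library. Levels are given as CPM, counts scaled to a common library total with TMM factors, which lay between 1.003 and 1.017. In a principal component analysis of the 6 libraries the first component held 89.3% of the variance and placed the doxycycline libraries between -21.5 and -17.8 and the untreated libraries between 18.5 and 20.2. Counts of replicate libraries differed by 1.43 to 2.79 times the counting noise, as chi-square per degree of freedom, and the widest pair was doxycycline libraries 1 and 2. Muscle markers were present in every library: Myod1 stood at 146, 155 and 148 CPM with doxycycline and at 199, 196 and 192 CPM without it, and desmin (Des) at 970, 1053 and 990 CPM against 1293, 1284 and 1269 CPM. Pax7, a satellite cell marker, held only 3 counts over the doxycycline libraries and 8 over the untreated ones.

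Many genes of the luciferase line differed with doxycycline, and most of them by little. Of 13602 genes tested, 2004 (14.7%) were higher and 2224 (16.4%) were lower with doxycycline at an adjusted p under 0.05 in edgeR's quasi-likelihood test. At least 1.5-fold changes were called for 450 higher genes (3.31%) and 692 lower genes (5.09%), and at least 4-fold changes for 36 higher and 134 lower genes. The median log2 fold change over all genes tested was 0. CPM ranges of the 2 groups did not overlap for 3614 genes higher (26.6%) and 3571 genes lower (26.3%) with doxycycline. When the 6 luciferase libraries were fitted alone, 3032 genes (24.5% of 12381) were higher and 3116 (25.2%) were lower. That fit had a biological coefficient of variation of 2.45%, against 6.25% over all 18 libraries, whose shared spread the p-values below use.

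**Figure D1:**
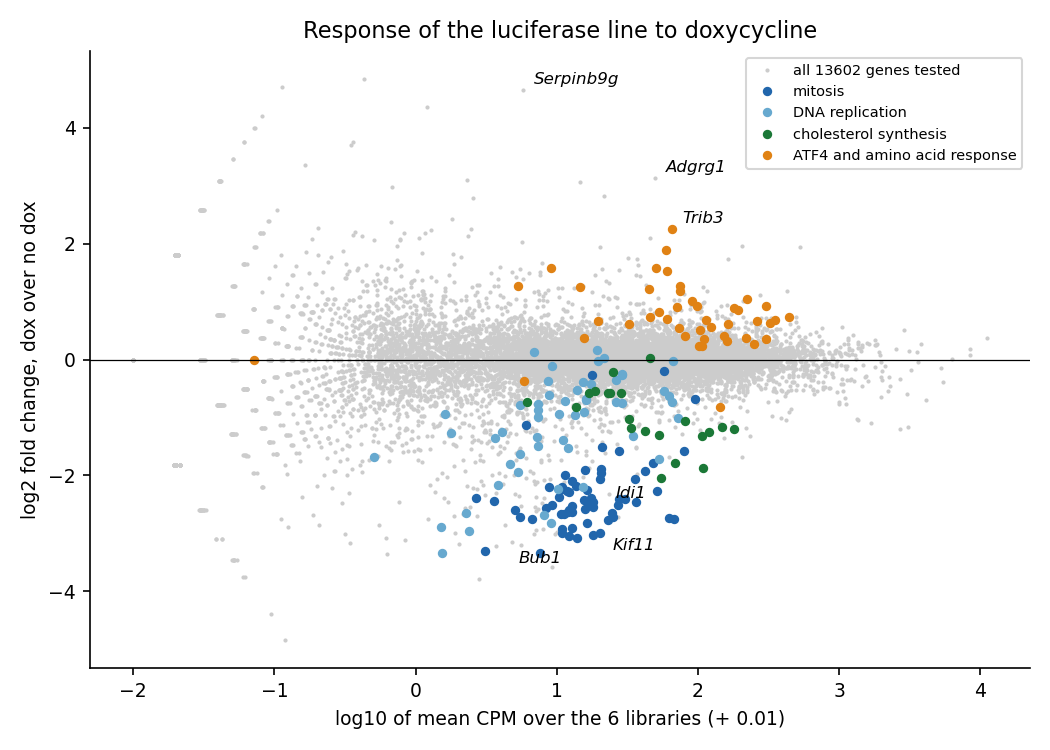
Log2 fold change of each gene (doxycycline over untreated luciferase line, vertical axis) against its mean level over the 6 libraries (log10 CPM, horizontal axis). Grey points are the 13602 genes tested, and mitosis and DNA replication genes lie below 0 almost throughout, down to -3.34, while ATF4 and amino acid response genes lie above 0 up to 2.25.

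Adgrg1, Bub1, Kif11 and Idi1 were taken as markers of this response, and most are not particular to it. With human DUX4, Adgrg1 rose by 4.06 and Kif11 fell by 2.70, and with mouse Dux, Idi1 fell by 2.04. Bub1 fell by at most 0.42 in the other lines. Adgrg1 (Entrez 14766, chromosome 8, 94974756 to 95014208 in GRCm38), an adhesion G-protein-coupled receptor also called GPR56, stood at 89.4, 89.5 and 89.4 CPM with doxycycline and at 10.2, 9.32 and 11.1 CPM without it. All 3 doxycycline libraries were far above the untreated ones, with a log2 fold change of 3.14 (SE 0.0846, edgeR adjusted p = 5.36e-15). Bub1 (chromosome 2, 127800197 to 127831859), a kinase of the spindle checkpoint, stood at 2.80, 2.90 and 3.04 CPM with doxycycline and at 25.2, 24.7 and 24.3 CPM without it. The groups lay far apart, and Bub1 fell by 3.08 on the log2 scale (SE 0.0823, edgeR adjusted p = 5.36e-15). Kif11 (chromosome 19, 37376382 to 37421863), the kinesin that pushes spindle poles apart, was at 3.98, 5.10 and 4.35 CPM with doxycycline against 37.0, 35.5 and 34.8 CPM without it. Its log2 fold change was -2.999 (SE 0.0861, edgeR adjusted p = 7.63e-15). Idi1 (chromosome 13, 8885606 to 8892396), the isopentenyl diphosphate isomerase of sterol synthesis, was at 19.5, 21.5 and 23.7 CPM with doxycycline against 89.2, 87.9 and 88.6 CPM without it. It fell by 2.04 on the log2 scale (SE 0.0624, edgeR adjusted p = 1.21e-14).

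**Figure D2:**
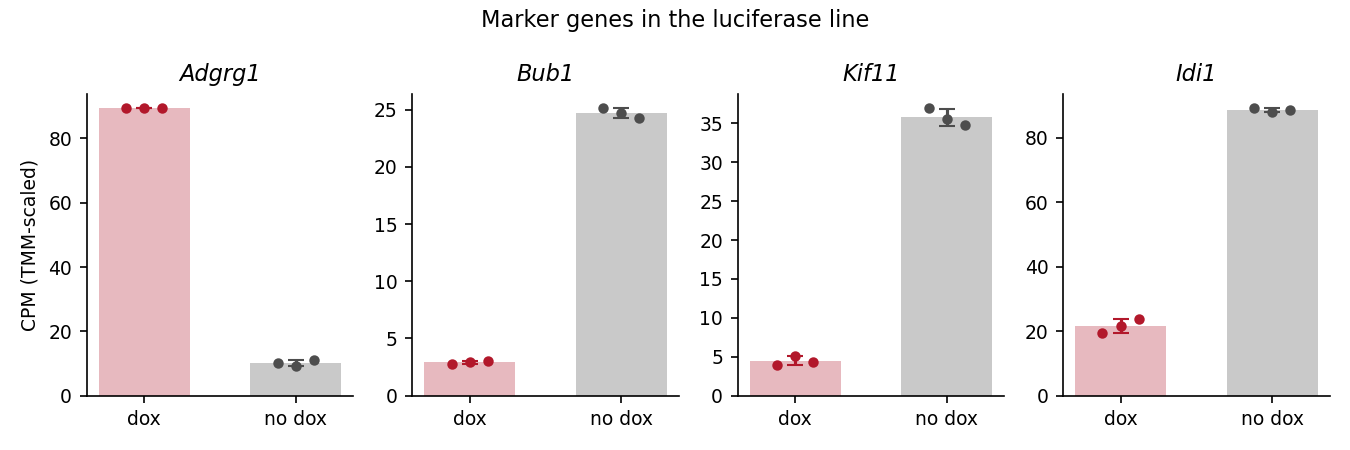
CPM of Adgrg1, Bub1, Kif11 and Idi1 in each luciferase-line library, with doxycycline (red, left) and without it (grey, right), with bars at the mean and whiskers of 1 SD (n = 3 each). Adgrg1 averaged 89.4 CPM with doxycycline and 10.2 CPM without it, and in all 4 panels the points of the 2 groups do not overlap.

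The mitosis genes had the lowest median change of the 25 gene lists. Of 63 listed and tested, 62 fell and none rose. In all 63 the 3 doxycycline libraries lay below the 3 untreated ones, against 26.3% of all genes tested. The median log2 fold change of the list was -2.45, against 0 over all genes tested, of which 16.4% fell. Summed over the list, the level was 501, 540 and 566 CPM with doxycycline and 2176, 2059 and 2200 CPM without it. In bulk RNA, fewer dividing cells and less of these RNAs per dividing cell cannot be told apart.

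Each class of mitosis gene looked at took part, though not every listed gene was placed in a class. All 9 kinesins fell, with a median of -2.49, from -3.03 for Kif2c, which depolymerises microtubules at kinetochores, to -1.13 for Kif18a. All 10 kinetochore and checkpoint genes fell, with a median of -2.55, and among them Ndc80, which links kinetochores to microtubules, stood at 2.43, 2.00 and 2.86 CPM with doxycycline and 20.2, 17.3 and 21.0 CPM without it. All 10 genes placed in the class of cyclins, kinases and phosphatases fell, with a median of -2.58. Aurkb, the kinase of the chromosomal passenger complex, had the deepest fall of them, to 0.871, 1.61 and 1.61 CPM with doxycycline against 13.3, 13.8 and 14.6 CPM without it (log2 fold change -3.34, SE 0.165). The mitotic cyclin gene Ccnb1 was at 4.73, 5.87 and 6.98 CPM with doxycycline and 39.4, 39.1 and 42.7 CPM without it, and its partner Cdk1 at 7.03, 8.91 and 9.18 CPM against 33.1, 30.3 and 34.2 CPM. The proliferation marker Mki67 stood at 12.6, 18.7 and 20.6 CPM with doxycycline against 122, 111 and 118 CPM without it. All 10 condensin and cohesin genes fell too, with a median of -2.22, from -3.30 for Esco2, a cohesin acetyltransferase, to -0.68 for Smc4. The 2 smallest changes on the list were those of the phosphatase Cdc25b, which fell by 0.20, and of citron kinase (Cit), whose log2 fold change of -0.26 (SE 0.222) did not pass the test. Cit was placed in none of these classes.

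Mitotic genes are known to carry 2 short promoter motifs bound by the DREAM and MuvB complexes or by NF-Y, the CHR element (TTTGAA or TTCGAA) and the CCAAT box. Both strands of the 250 bases before each RefSeq start site were searched, each motif on its own, so that matches may overlap. A CHR match was found for 20 of the 53 mitosis genes with a promoter in the table (37.7%), against 14.9% of the 10773 tested genes with one. A CCAAT match was found for 38 of the 53 (71.7%), against 41.2%. These are matches of letters, not binding sites. The bases nearest the starts of 3 genes that fell by about the same amount are shown to let the matches be seen, from RefSeq sequence of GRCm38.p6, read along the strand of the gene. The start is the 1 that the RefSeq table gives for a gene, and for Kif2c, and for Mcm5, Uhrf1 and Vldlr shown further on, it lies inside the annotated gene, downstream of its outermost start. Capitals mark the CHR matches in Kif11 and Kif2c and the CCAAT matches in Bub1, and a match on the other strand appears as its reverse complement.
Kif11 (chr19:37376262-37376381, plus strand, 120 to 1 bases before the start): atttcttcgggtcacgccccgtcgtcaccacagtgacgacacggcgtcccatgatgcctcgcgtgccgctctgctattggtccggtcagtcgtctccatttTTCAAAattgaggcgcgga
Kif2c (chr4:117178773-117178892, minus strand, 120 to 1 bases before the start): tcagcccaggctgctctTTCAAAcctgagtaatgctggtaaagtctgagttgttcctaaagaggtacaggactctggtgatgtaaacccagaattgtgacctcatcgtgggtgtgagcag
Bub1 (chr2:127831860-127831979, minus strand, 120 to 1 bases before the start): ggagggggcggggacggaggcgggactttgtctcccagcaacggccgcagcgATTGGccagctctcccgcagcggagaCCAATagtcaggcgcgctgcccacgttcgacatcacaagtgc
Kif11 and Kif2c are shown with their CHR match, which lies 19 and 103 bases before the start used, and Bub1 with its 2 CCAAT matches, 68 and 42 bases before the start on opposite strands. The Kif11 stretch also holds a CCAAT match on the other strand, left in lower case.

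DNA replication genes fell as well, but less uniformly. Of 53 tested, 46 fell and none rose, against 16.4% and 14.7% of all genes tested. Their median log2 fold change was -0.94, and their summed levels were 690, 679 and 681 CPM with doxycycline and 1163, 1136 and 1180 CPM without it. All 6 subunits of the MCM helicase, which unwinds DNA at the fork, fell, from -2.82 for Mcm5 to -0.24 for Mcm7. Mcm5 stood at 2.30, 2.19 and 2.33 CPM with doxycycline and at 17.4, 15.3 and 15.4 CPM without it, so that the groups were far apart. Cdc6, which loads the helicase, had 13 counts over the doxycycline libraries and 135 over the untreated ones, a log2 fold change of -3.34 (SE 0.347, edgeR adjusted p = 3.36e-07). The 5 polymerase and primase genes fell by 0.72 to 1.93 on the log2 scale, and 5 of 6 nucleotide supply genes fell, led by thymidine kinase Tk1 at -2.68. Pcna, the sliding clamp, fell by 0.63, to 49.4, 49.95 and 48.1 CPM with doxycycline against 73.3, 75.2 and 80.2 CPM without it. The 7 genes that did not pass were Cdt1, Gins4, Rfc1, Rfc4, E2f1, Brca2 and Dut. E2f1, a transcription factor for this programme, was at 22.7, 20.3 and 22.4 CPM with doxycycline and 22.6, 21.5 and 20.2 CPM without it, and its groups overlapped.

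The E2F motif was searched as TTTNGCGC on both strands of the same window, where N is any base. It was found for 7 of the 41 replication genes with a promoter (17.1%), against 2.39% of all tested genes with one. Mcm5 and Uhrf1, a factor that maintains DNA methylation after replication, are shown with their matches in capitals.
Mcm5 (chr8:75109288-75109407, plus strand, 221 to 102 bases before the start): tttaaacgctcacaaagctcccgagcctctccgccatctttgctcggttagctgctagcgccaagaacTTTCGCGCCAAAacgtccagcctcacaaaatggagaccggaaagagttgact
Uhrf1 (chr17:56304063-56304175, plus strand, 250 to 138 bases before the start): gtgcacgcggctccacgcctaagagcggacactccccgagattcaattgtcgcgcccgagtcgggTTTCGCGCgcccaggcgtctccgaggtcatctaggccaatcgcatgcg
In Mcm5 the capitals hold 2 overlapping matches, one on each strand, and in Uhrf1 they hold 1. Uhrf1 fell by 2.204 on the log2 scale, to 5.60, 5.23 and 5.49 CPM with doxycycline against 23.8, 22.6 and 29.1 CPM without it.

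The cholesterol pathway fell along its whole length. Of 21 enzymes tested 20 fell and none rose, against 16.4% and 14.7% of all genes tested. The median log2 fold change was -1.06, and the summed level was 703, 807 and 751 CPM with doxycycline against 1699, 1694 and 1725 CPM without it. All 8 genes of the mevalonate steps fell, from -2.04 for Idi1 to -0.54 for Mvd. Fdps, which makes farnesyl diphosphate, stood at 41.6, 51.7 and 46.4 CPM with doxycycline against 168, 167 and 178 CPM without it. All 12 genes between squalene and cholesterol fell, with a median of -1.05, among them the squalene epoxidase gene Sqle by 1.16 and the sterol isomerase gene Ebp by 0.21. The enzyme gene that did not pass was Ggps1, of the side branch to geranylgeranyl diphosphate, with a log2 fold change of 0.03.

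Genes around the pathway split by direction. The sterol carrier Stard4 fell by 1.23, the sterol sensor Insig1 by 0.83 and SREBP2 itself (Srebf2) by 0.27. The exporter gene Abca1, which loads cholesterol onto HDL, rose to 55.9, 58.3 and 54.8 CPM with doxycycline against 17.1, 19.6 and 18.02 CPM without it (1.63, SE 0.108). The other exporter Abcg1 rose by 0.67 and Soat1, which esterifies cholesterol for storage, by 0.71. In all, 6 of the 15 uptake, export and control genes rose and 5 fell, against 14.7% and 16.4% of all genes tested. Among 15 fatty acid synthesis genes 11 fell and 1 rose, against those 16.4% and 14.7%, with a median of -0.29. Fads2, a desaturase, fell by 1.16 and fatty acid synthase (Fasn) by 0.66, with Fasn at 147, 157 and 148 CPM with doxycycline against 238, 244 and 230 CPM without it.

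A CCAAT box was found in the 250 bases before the start for 15 of the 16 cholesterol genes with a promoter (93.8%), and the SREBP motif searched as TCACNCCAC on both strands for 1 of the 16, against 41.2% and 1.20% of all tested genes with a promoter. Idi1 is shown with its 2 CCAAT matches in capitals, at 45 and 14 bases before the start, both on the opposite strand.
Idi1 (chr13:8885486-8885605, plus strand, 120 to 1 bases before the start): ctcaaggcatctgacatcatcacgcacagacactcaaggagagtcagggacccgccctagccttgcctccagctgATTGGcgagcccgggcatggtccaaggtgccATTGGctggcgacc

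Genes of the ATF4 and amino acid response rose almost as a block. Of 44 tested, 41 rose and 2 fell. Their median was 0.69 on the log2 scale, against 14.7% of all genes tested that rose. The summed level was 7400, 5834 and 6669 CPM with doxycycline and 4209, 4186 and 4287 CPM without it. The doxycycline libraries were more spread than the untreated ones and kept 1 order across the list. Library 1 was the highest and library 2 the lowest of the 3 for 41 of the 43 members with a mean of at least 5 CPM (95.3%), against 20.4% of the 10394 tested genes at that level. Other lists also kept an order. Library 2 was the highest and library 1 the lowest for 61.9% of cholesterol synthesis, 50% of sarcomere and 28.3% of mitosis genes at that level. Of all tested genes at that level 19.5% had this reverse order. In the ATF4 list the lowest doxycycline library still lay above all untreated libraries for 40 members, against 26.6% of all genes tested.

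All 6 transcription factors of the list rose. Atf4 stood at 608, 484 and 569 CPM with doxycycline and at 324, 334 and 345 CPM without it (0.73, SE 0.0675). Ddit3, which encodes the stress factor CHOP, stood at 110, 78.9 and 91.2 CPM against 24.6, 25.4 and 25.3 CPM (1.90, SE 0.103, edgeR adjusted p = 3.09e-11). Trib3, a pseudokinase that restrains ATF4, had the largest rise of the list, to 137, 79.5 and 106 CPM with doxycycline against 23.1, 21.0 and 23.6 CPM without it (2.25, SE 0.135). Chac1, which breaks down glutathione, was at 93.6, 56.5 and 75.8 CPM with doxycycline and 25.4, 24.99 and 24.9 CPM without it. In each of these genes doxycycline library 1 was the highest and library 2 the lowest, and the groups did not overlap.

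The enzyme classes of the response rose by less. All 11 aminoacyl-tRNA synthetases rose, between 0.23 for Mars and 0.90 for Wars, with a median of 0.41. All 6 serine, glycine and folate enzymes rose, up to 1.04 for Aldh1l2, and Mthfd2, the mitochondrial folate enzyme, stood at 143, 97.1 and 122.9 CPM with doxycycline against 60.8, 59.7 and 59.3 CPM without it. Asparagine synthetase (Asns) rose by 0.92. The secreted stress signals Gdf15 and Fgf21 rose by 1.25 and 1.27, and Fgf21 was at 10.6, 5.36 and 6.56 CPM with doxycycline against 3.29, 2.93 and 3.11 CPM without it. Of 5 amino acid transporter genes 4 rose, and the cystine transporter Slc7a11 fell by 0.81, to 101, 103 and 110 CPM with doxycycline against 180, 191 and 180 CPM without it. The other member that fell was Stc2, a secreted glycoprotein, by 0.37 (edgeR adjusted p = 0.0302), and without doxycycline library 1 or 2, or untreated library 1 or 3, the list held 1 fall in place of 2. Cbs was all but uncounted, with 6 counts over the 6 libraries.

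The C/EBP-ATF composite element bound by ATF4 was searched as TGATGNAA on both strands. It was found for 10 of the 38 members with a promoter (26.3%), against 2.52% of all tested genes with one. The matches of Chac1, Vldlr, a lipoprotein receptor that rose by 1.53, and Fgf21 are in capitals, all on the strand opposite to the gene.
Chac1 (chr2:119350992-119351096, plus strand, 250 to 146 bases before the start): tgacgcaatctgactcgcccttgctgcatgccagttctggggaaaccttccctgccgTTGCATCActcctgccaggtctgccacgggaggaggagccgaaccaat
Vldlr (chr19:27216770-27216867, plus strand, 250 to 153 bases before the start): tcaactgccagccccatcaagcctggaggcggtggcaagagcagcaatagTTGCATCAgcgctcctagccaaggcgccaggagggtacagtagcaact
Fgf21 (chr7:45615582-45615701, minus strand, 211 to 92 bases before the start): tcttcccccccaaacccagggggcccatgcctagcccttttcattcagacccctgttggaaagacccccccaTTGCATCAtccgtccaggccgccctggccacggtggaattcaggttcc
The 3 genes carry the same 8 letters, at 193, 200 and 139 bases before their starts.

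**Figure D3:**
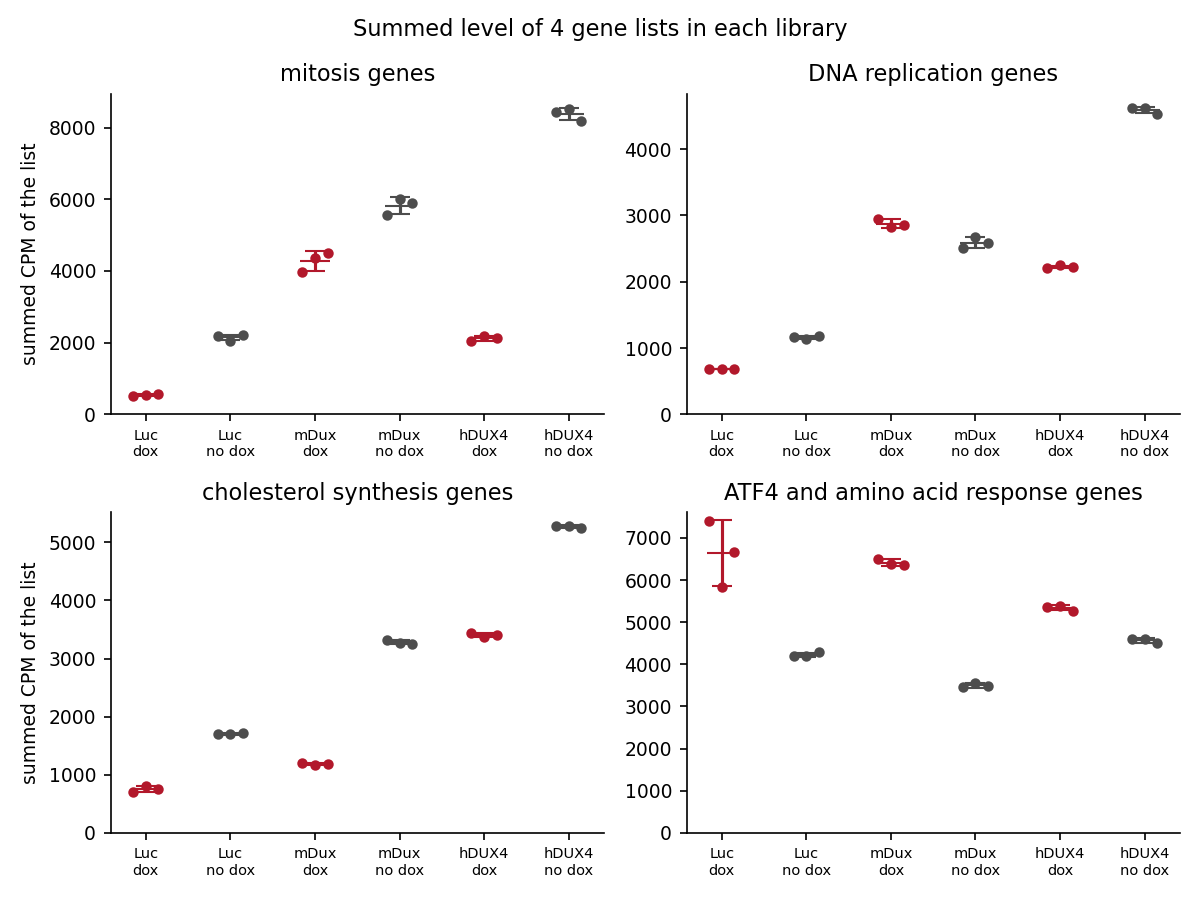
Summed CPM of 4 gene lists (vertical axes, from 0) in each of the 18 libraries, with doxycycline (red) left of without it (grey) in each line, and whiskers of 1 SD around the mean (n = 3). In the luciferase line the mitosis sum averaged 536 CPM with doxycycline and 2145 CPM without it, and the ATF4 and amino acid sum spread from 5834 to 7400 CPM over the doxycycline libraries.

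Among mitochondrial genes the respiratory chain fell, and a few chaperones and proteases changed in each direction. Of 15 chaperones and proteases 3 rose and 4 fell, against 14.7% and 16.4% of all genes tested. Their median was -0.09 on the log2 scale. In the fit without the induced mouse Dux libraries 7 fell, as did 3330 of the 13191 genes tested there. The protease Lonp1, which clears damaged matrix proteins, rose to 208, 171 and 190 CPM with doxycycline against 128, 126 and 121 CPM without it (0.60, SE 0.0558). The matrix chaperone Hspa9 rose by 0.54 and its partner Dnaja3 by 0.25, while Hspd1 (HSP60) fell by 0.21 and prohibitin (Phb) by 0.40. No nuclear-encoded respiratory chain subunit rose and 42 of 76 fell, against 16.4% of all genes tested. The median log2 fold change of these 76 was -0.22. All 68 subunits called in the fit of the 6 luciferase libraries alone were lower, against 25.2% of all genes in that fit, and 68 had ranges below the untreated ones without overlap, against 26.3% of all genes tested. The fall was shared by the complexes, with 17 of 37 genes of complex I, 3 of 4 of complex II, 6 of 9 of complex III, 6 of 10 of complex IV and 9 of 15 of complex V. Cytochrome c (Cycs), the mobile electron carrier, fell most, to 72.7, 78.2 and 77.4 CPM with doxycycline against 119, 128 and 121 CPM without it (-0.69, SE 0.0714). Atp5b, the catalytic subunit of ATP synthase, stood at 1030, 1068 and 1047 CPM with doxycycline and 1307, 1359 and 1332 CPM without it, a smaller step in which the groups still did not overlap.

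These transcripts are short, with a median of 1186 bases for the longest annotated form. Over all genes the median log2 fold change was -0.05 for the 2668 with transcripts of at most 1965 bases and 0.06 for the 2663 with transcripts of at least 5258 bases, so length moved with the change in the same direction, and its part in the fall of the respiratory chain was not tested. The list for the mitochondrial ribosome, on which tetracyclines act, also held translation factors. Of its 84 genes tested, 24 were lower and none higher, with a median of -0.19. Of all genes tested 16.4% were lower. The count was 47 in the fit of the luciferase libraries alone, where 25.2% of all genes were lower, and 15 without doxycycline library 3. Mrps6, a small-subunit protein gene, fell most, to 19.5, 18.9 and 19.1 CPM with doxycycline against 29.9, 31.0 and 32.0 CPM without it. Of 11 genes for mitochondrial DNA upkeep and biogenesis 1 passed, against 31.1% of all genes tested. It was the RNA polymerase gene Polrmt, which fell by 0.27. In the fit without doxycycline library 1, and in that of the luciferase libraries alone, 2 of the 11 fell.

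Muscle genes were lower with doxycycline. Of 35 sarcomere genes 29 fell, against 16.4% of all genes tested. The M-band gene Myom2 was called higher by 0.19, and no sarcomere gene was called higher by DESeq2 or in 5 of the 6 fits that left out 1 library. Their median log2 fold change was -0.68 and their summed levels were 3435, 3725 and 3592 CPM with doxycycline against 6018, 5879 and 6049 CPM without it. Cardiac actin (Actc1), which early myotubes express, fell most, to 19.4, 23.3 and 21.5 CPM with doxycycline against 89.3, 84.0 and 88.4 CPM without it (-2.03, SE 0.0825). Embryonic myosin (Myh3) stood at 79.2, 102 and 88.8 CPM with doxycycline and 191, 184 and 201 CPM without it, and skeletal actin (Acta1) at 102, 125 and 107 CPM against 230, 222 and 250 CPM. Of 30 myoblast and myogenic genes 18 fell and 4 rose, against 16.4% and 14.7% of all genes tested, with a median of -0.35. Myogenin (Myog), the factor of terminal differentiation, fell by 0.72, to 124, 117 and 113 CPM with doxycycline against 201, 191 and 191 CPM without it. The fusion genes myomaker (Tmem8c) and myomixer (Gm7325) fell by 0.72 and 0.78, and Myod1 and Myf5, the determination factors, by 0.38 and 0.36. Vcam1, an adhesion molecule of myoblasts, was among those that rose, by 0.65. With DESeq2, and without doxycycline library 3 or any one of the untreated libraries, 2 genes of this list rose in place of 4.

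Matrix genes changed in both directions. Of 41 collagen and matrix genes 21 fell and 5 rose, against 16.4% and 14.7% of all genes tested, and 13 rose in the fit of the luciferase libraries alone, where 24.5% of all genes did. Of 19 metalloproteases and inhibitors 11 rose and 5 fell, against 14.7% and 16.4% of all genes tested. Without doxycycline library 1 or 2 or untreated library 1, 3 of them fell. Col1a2, the second chain of type I collagen, fell to 264, 278 and 277 CPM with doxycycline against 592, 549 and 552 CPM without it (-1.05, SE 0.0584). Ctgf, a matricellular target of TGF-beta and YAP signalling, fell by 1.15, and the adhesive proteins Thbs2 and Thbs1 by 1.52 and 0.77. Decorin (Dcn), a small proteoglycan that binds collagen, rose to 287, 283 and 273 CPM with doxycycline against 138, 139 and 139 CPM without it (1.02, SE 0.0565). The gelatinase Mmp2 rose by 0.48 and its activator Mmp14 by 0.31, and Mmp11 rose by 0.83. Of the insulin-like growth factor axis 5 of 17 genes rose and 4 fell, against 14.7% and 16.4% of all genes tested. The imprinted RNA H19 stood at 2911, 3276 and 3199 CPM with doxycycline against 5008, 5070 and 5159 CPM without it, and Igf2, its neighbour at the same imprinted locus, fell by 0.33.

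Genes of glycolysis and the hypoxia response changed in both directions. Of 34 genes 16 fell and 7 rose, against 16.4% and 14.7% of all genes tested, and the median was -0.20. Enzymes from aldolase to lactate dehydrogenase were among those that fell, with Ldha at 272, 296 and 293 CPM with doxycycline against 427, 418 and 428 CPM without it, and Tpi1, Pgam1, Pgk1 and Eno1 lower by 0.55, 0.54, 0.52 and 0.46. Ndrg1, a stress-responsive gene, rose to 411, 347 and 374 CPM with doxycycline against 170, 180 and 175 CPM without it (1.11, SE 0.0524). The growth factor Vegfa, the oxidase Ero1l and hexokinase 2 (Hk2) rose by 0.93, 0.87 and 0.75. Aldoc had the lowest fold change of the list but stood under 0.5 CPM in every library.

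Of 26 autophagy and lysosome genes 19 rose and none fell, against 14.7% and 16.4% of all genes tested. Their median was 0.23. The cargo receptor Sqstm1 (p62) stood at 1336, 1173 and 1233 CPM with doxycycline against 838, 867 and 831 CPM without it, and the lysosomal hexosaminidase Hexa at 422, 443 and 422 CPM against 287, 313 and 289 CPM. Heat shock and ER chaperone genes went the other way, with 20 of 29 lower and 4 higher, against 16.4% and 14.7% of all genes. Hsp90aa1, the inducible cytosolic HSP90, fell to 535, 537 and 536 CPM with doxycycline against 741, 760 and 783 CPM without it. Hspa5 (BiP), the chaperone that marks the unfolded protein response, was at 829, 758 and 804 CPM with doxycycline and 843, 829 and 852 CPM without it, a log2 fold change of -0.08 that did not pass. The 4 that rose were Herpud1, Dnajb9, Edem1 and Xbp1, all of the ER stress response, by 0.20 to 0.68. Of 21 NRF2 target genes 7 rose and 6 fell, against 14.7% and 16.4% of all genes, and their median was -0.01. Nqo1, a quinone reductase, rose by 0.66 and thioredoxin (Txn1) fell by 0.49. In the fit without untreated library 2, the list held 3 falls in place of 6.

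Of 26 p53 target genes 14 rose and 2 fell, against 14.7% and 16.4% of all genes tested. Their median was 0.20, and 1 fell without untreated library 1. Cdkn1a, the cyclin-dependent kinase inhibitor p21, did not pass the test: it stood at 513, 474 and 479 CPM with doxycycline and at 475, 464 and 484 CPM without it, and the groups overlapped. The largest rise of this list was that of Bbc3, which encodes the cell death protein PUMA, by 0.61. Of 28 immediate early genes 12 rose and 2 fell, against the same shares of all genes. Atf3, also a stress gene under ATF4, rose to 13.4, 9.04 and 11.2 CPM with doxycycline against 4.39, 4.02 and 3.38 CPM without it, and Klf4, a zinc-finger transcription factor, rose to 175, 132 and 154 CPM against 65.6, 63.3 and 65.4 CPM. Both followed the library order seen in the ATF4 list. Of 25 interferon-stimulated genes tested 3 passed, against 31.1% of all genes tested. Only 11 of the 25 had a mean of at least 5 CPM in the luciferase libraries, so nothing is read from the low share. H2-K1, of class I antigen presentation, fell by 0.64. Irf9 was called higher, by 0.33, and lost the call without doxycycline library 2 or untreated library 1 or 3. Ifit2 was called lower, by 0.22, and lost the call without doxycycline library 1 or 3 or untreated library 2 or 3. In the fit of the luciferase libraries alone 2 genes of this list were higher and 4 lower. The shares of all genes in that fit were 24.5% and 25.2%.

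**Figure D4:**
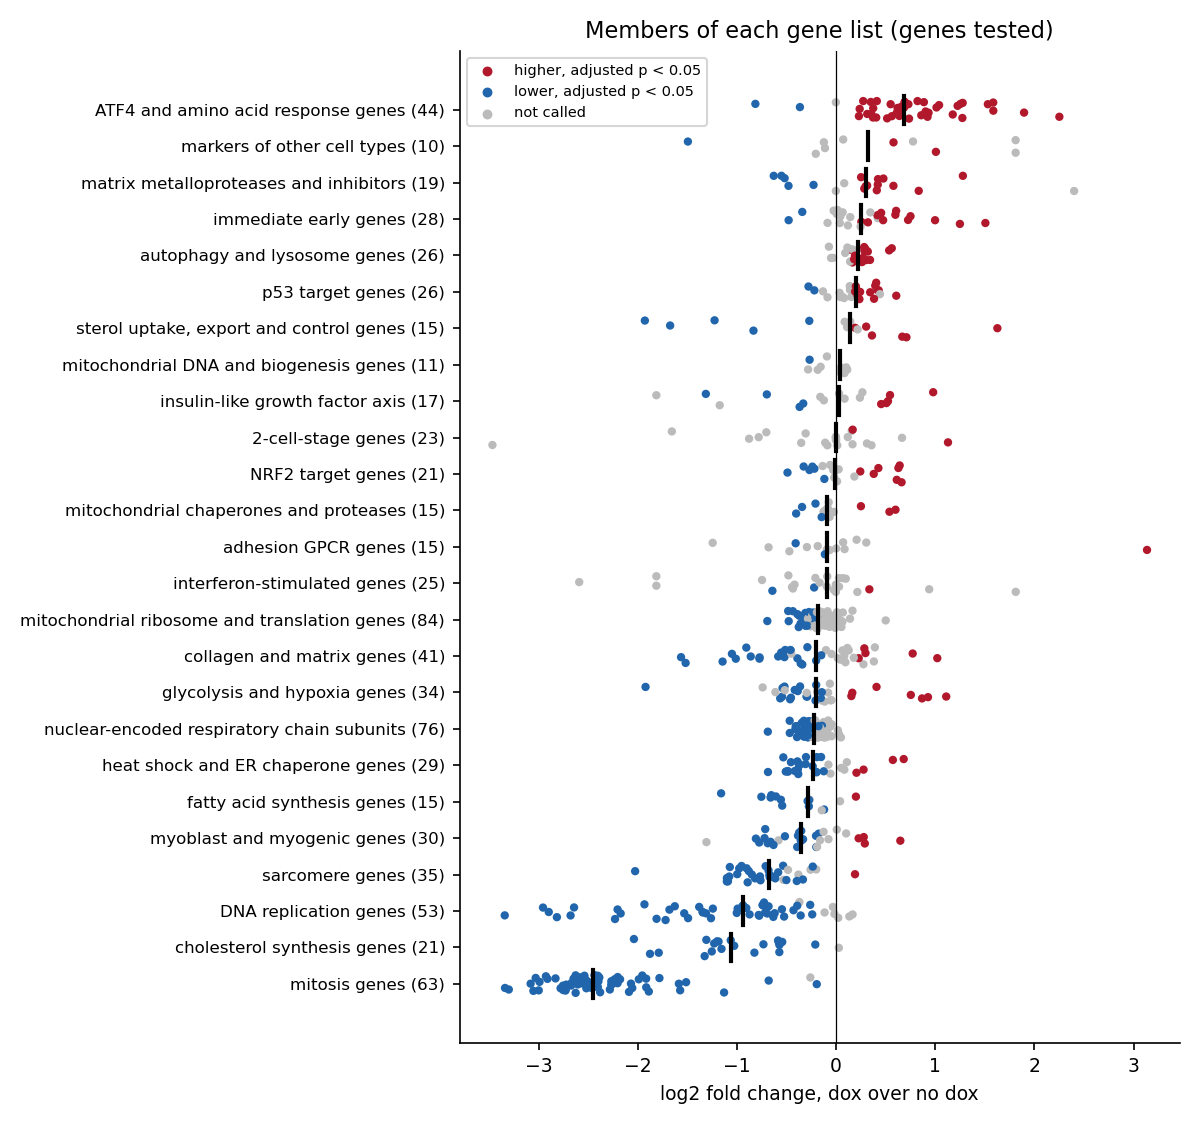
Log2 fold change, doxycycline over untreated (horizontal axis), of every tested member of 25 gene lists (rows, number tested in brackets), coloured by call, with a black bar at each median. The medians run from -2.45 for mitosis genes to 0.69 for ATF4 and amino acid response genes.

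Several of the largest changes lay outside the lists. Serpinb9g, of the mouse serpin B9 cluster, had the highest fold change among well-counted genes, at 12.6, 8.65 and 12.3 CPM with doxycycline against 0.404, 0.488 and 0.414 CPM without it (4.66, SE 0.258). Its close relatives make the assignment of its reads uncertain. Neat1, the long non-coding RNA of paraspeckles, rose to 870, 805 and 827 CPM with doxycycline against 247, 204 and 196 CPM without it (1.95, SE 0.0781). Enpp2, the secreted enzyme autotaxin that makes lysophosphatidic acid, rose to 333, 313 and 331 CPM against 82.9, 90.1 and 79.2 CPM (1.96, SE 0.0559, edgeR adjusted p = 7.63e-15). Angptl4, a secreted inhibitor of lipoprotein lipase, rose by 2.10, and Csf2rb, the shared receptor chain for IL-3, IL-5 and GM-CSF, by 1.75. The rest of the 12 highest were Car6, a secreted carbonic anhydrase, at 34.5, 17.4 and 25.9 CPM with doxycycline against 3.17, 2.86 and 3.25 CPM without it, Fam43a (2.83), the calcium pump gene Atp2a3 (2.03) and Cdsn, which encodes corneodesmosin (1.94).

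Of the 12 lowest genes, 6 were on no list, and 2 of them are known by other names. The lowest was 2810417H13Rik, a PCNA-associated factor gene now called Pclaf, at 1.18, 1.68 and 1.37 CPM with doxycycline against 16.7, 17.0 and 17.1 CPM without it (-3.58, SE 0.129). Mxd3, a MAX-binding repressor, fell by 3.21, the scaffold gene Iqgap3 and Fam64a (Pimreg) each by 3.02, Depdc1a by 3.01 and the kinase gene Melk by 2.97.

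The 2-cell-stage genes, which mouse Dux is known to switch on, passed the test in few cases in the luciferase line. Of 23 tested 2 passed, against 31.1% of all genes tested. The filter on low counts ran over all 18 libraries, the induced mouse Dux libraries among them. Only 2 of the 23 had a mean of at least 5 CPM in the luciferase libraries. Few calls could be made at such counts, so nothing is read from this share. They were Gm2022, with a log2 fold change of 1.13, and Eif1a, with 0.17. The Eif1a call was lost in 5 of the 6 fits that left out 1 library. Zscan4c, a zinc finger gene of the 2-cell embryo, stood at 3.30, 2.58 and 3.52 CPM with doxycycline and at 3.29, 3.11 and 3.66 CPM without it. How reads were shared among the near-identical copies of such families is uncertain. Dux itself held 8 counts over the 6 libraries. Of 15 adhesion G-protein-coupled receptor genes tested, Adgrg1 rose and Adgrg6 fell by 0.41. Adgre5, with a log2 fold change of -0.11, lost its call in each of the 6 fits that left out 1 library (edgeR adjusted p = 0.0693 to 0.130).

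Of 24 markers of other cell types, 10 passed the filter on low counts, and 9, among them Adgre1 of macrophages, Epcam of epithelium and Adipoq of fat cells, had no count in any of the 6 libraries. The sum over the list was 51.7, 47.9 and 54.5 CPM with doxycycline and 63.4, 62.0 and 67.5 CPM without it. Its largest member was Cdh5, a cadherin of endothelium, at 23.1, 22.5 and 24.7 CPM with doxycycline against 23.5, 25.5 and 27.1 CPM without it. The epithelial keratin gene Krt14 stood at 11.01, 7.81 and 11.98 CPM against 11.3, 9.69 and 12.8 CPM. Neither passed the test, and the groups overlapped in both. Tubb3, a tubulin used as a marker of neurons, fell to 7.15, 6.91 and 7.51 CPM with doxycycline against 20.7, 18.95 and 21.3 CPM without it. In the untreated libraries it stood above Krt14. Pparg, of fat cells, and Bglap, of osteoblasts, rose by 0.58 and 1.01 at levels under 8 and under 2 CPM. The part of other cells in the results above was not tested.

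The Dux and DUX4 lines were given the same drug, and the 3 comparisons share no library. Of the 450 genes higher by at least 1.5-fold in the luciferase line, 207 (46.0%) were also called higher in the mouse Dux line and 162 (36.0%) in the human DUX4 line, while 117 and 112 were called lower there. Of all genes tested, 34.1% and 34.4% were called higher in those lines. Of the 692 lower genes, 295 (42.6%) were called lower with mouse Dux and 477 (68.9%) with human DUX4, against 34.8% and 33.1% of all genes tested. Across the 13602 genes the log2 fold changes of the luciferase line had a Pearson r of 0.03 with those of the mouse Dux line and 0.18 with those of the human DUX4 line, as a description over genes that are not independent. Called higher in all 3 lines were 373 genes (2.74%), and called lower in all 3 were 599 (4.40%). The clone, the transgene and the drug differ or coincide in these lines, and their parts cannot be told apart.

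The lists compared as follows. Mitosis genes fell further in the luciferase line, with a median of -2.45, than in the mouse Dux line, with -0.47: the difference of responses passed for 61 of 63 genes, all lower in the luciferase line, against 60.0% of all genes that differed either way. With human DUX4 the median was -2.28, and the difference passed for 31 genes, 21 of them lower and 10 higher in the luciferase line, against 55.0% of all genes. Cholesterol synthesis genes had medians of -1.06 with luciferase, -1.16 with mouse Dux and -0.74 with human DUX4. ATF4 and amino acid response genes had medians of 0.69 with luciferase, 0.88 with mouse Dux and -0.01 with human DUX4. Of the 44, 38 rose with mouse Dux, against 34.1% of all genes tested. With human DUX4 18 rose and 12 fell, not far from the 34.4% and 33.1% of all genes tested. The 2-cell-stage genes had a median of 11.39 with mouse Dux, where all 23 rose, against 34.1% of all genes tested. They were listed as genes that mouse Dux is known to switch on. The filter on low counts included the induced mouse Dux libraries, so nothing is read from that count.

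The lines also differed before any drug. Untreated, the mitosis sum averaged 2145 ± 75.3 CPM in the luciferase line, 5823 ± 235 CPM in the mouse Dux line and 8383 ± 169 CPM in the human DUX4 line (SD, n = 3 each). Kif11 averaged 35.8 ± 1.11 CPM in untreated luciferase cells, 139 ± 6.65 CPM in untreated mouse Dux cells and 159 ± 4.65 CPM in untreated human DUX4 cells. The level in the untreated luciferase line was near that of the human DUX4 line with doxycycline, whose mitosis sum averaged 2116 ± 76.1 CPM. These levels are set side by side, and the difference between untreated lines was not tested.

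The difference between responses was also tested gene by gene. Of the 110 genes named by rule, 89 differed from the mouse Dux response and 78 from the human DUX4 response, against 60.0% and 55.0% of all genes tested. Both differences passed for 64 of them, against 36.6% of all genes tested. All 110 were chosen for a called change in the luciferase line, so nothing is read from these counts. Idi1 fell by 2.04 in the luciferase line and by the same 2.04 with mouse Dux, and the difference of 0.0050 (SE 0.0887) did not pass, while with human DUX4 it fell by 0.37. Adgrg1 rose by 3.14 with luciferase, by 0.40 with mouse Dux and by 4.06 with human DUX4. Bub1 fell by 3.08 with luciferase, by 0.34 with mouse Dux and by 0.42 with human DUX4. Kif11 had a log2 fold change of -2.999 with luciferase, -0.94 with mouse Dux and -2.70 with human DUX4. Csf2rb and Enpp2 were called higher with luciferase and lower in both other lines: Csf2rb rose by 1.75 with luciferase and fell by 4.58 with mouse Dux and by 3.07 with human DUX4. Angptl4 rose by 2.10 with luciferase and by 0.68 with mouse Dux, and fell by 1.58 with human DUX4.

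**Figure D5:**
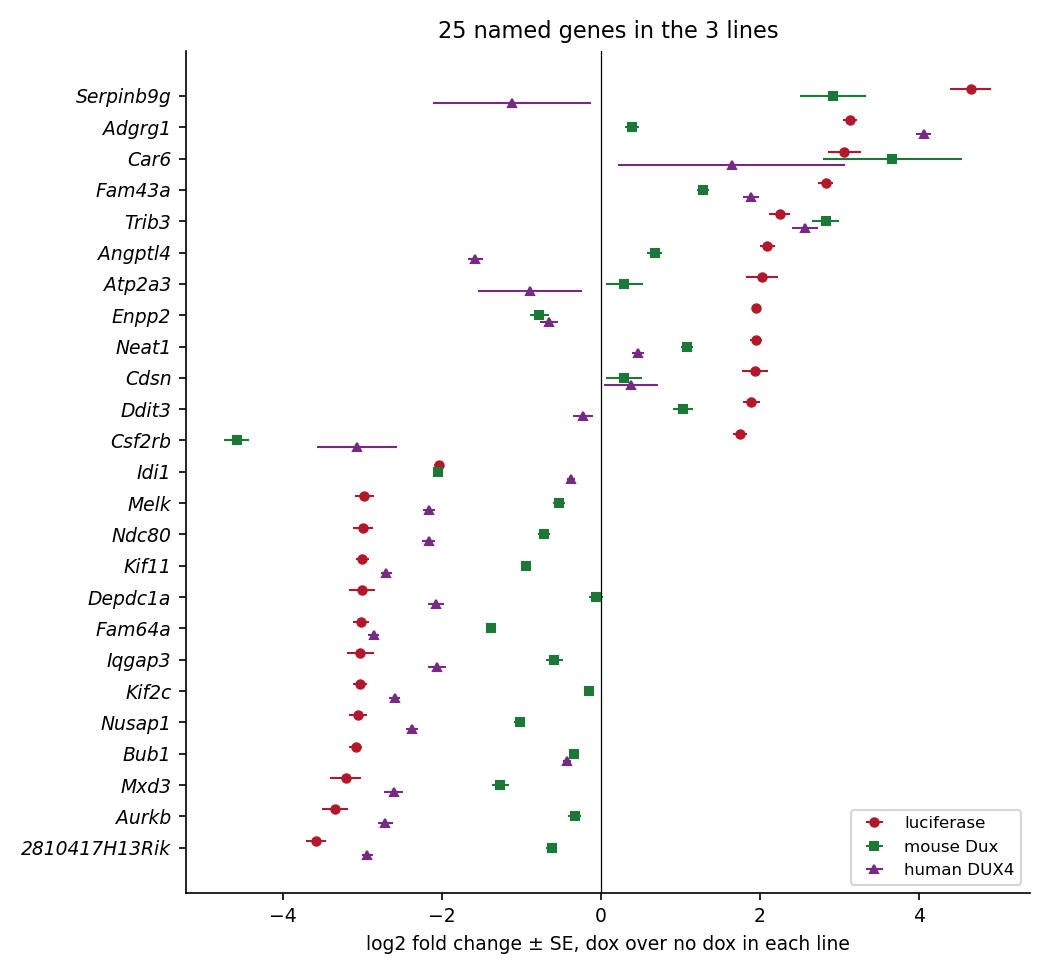
Log2 fold change of 25 named genes, doxycycline over untreated within each line (horizontal axis, whiskers of 1 SE), for luciferase (circles), mouse Dux (squares) and human DUX4 (triangles). Csf2rb lies at 1.75 with luciferase and at -4.58 and -3.07 in the other lines, and Idi1 lies at -2.04 with both luciferase and mouse Dux.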

How the data were processed

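Polyadenylated RNA was read from 18 cultures, with libraries pooled for sequencing per the labels' protocols. Which libraries shared a pool is not stated. The authors deposited read counts per gene as whole numbers without normalization. The submitters' processing notes name CASAVA, TopHat2 2.0.12, Bowtie2 2.2.3 and the build mm10 (GRCm38). For the counter, the annotation and the use of strand, nothing is given in the sources, so reads shared by near-identical, overlapping or antisense genes cannot be assigned with certainty. Of 24028 genes in it, 5017 had no count in any library, and 27 symbols turned into dates were restored from identifiers. By Entrez identifier 23968 genes (99.8%) matched RefSeq, which gave positions and promoters.

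Samples were grouped and numbered by their titles. Genes kept by filterByExpr (13602) were tested on counts in edgeR 4.0.16 (R 4.3.3) by quasi-likelihood F tests, two-sided. The model had 6 group means over all 18 libraries with TMM scaling, and Benjamini-Hochberg adjustment ran over all tested genes. Genes with an adjusted p under 0.05 were called. The SE is the log2 fold change divided by the square root of F. The p-values rest on the variation among separate cultures, shared by the 3 lines. Differences between lines were interaction contrasts of the same model. The code was tested on simulated counts.

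Named genes were the 12 highest and 12 lowest fold changes among called genes with a mean of at least 5 CPM and non-overlapping ranges, the 5 smallest p-values, 4 markers, and up to 4 genes per list. Values of further list members were chosen after they were seen. The members, gene lists and motifs were chosen with earlier results of these data known. The titles do not say whether cultures with the same replicate number were paired, and the main model left them unpaired. Correlations of same-numbered deviations were -0.0011, 0.057 and 0.021, against -0.041 to 0.023 for unlike numbers. With 3 libraries per group such values cannot exclude a pairing. Alternatives were DESeq2 1.42.0, other scalings, no filter, the luciferase libraries alone or without induced mouse Dux, a replicate block, and leaving out each library. Some members of the sterol lists are counted but not reported singly here.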

Additional observations from a re-analysis of the deposited data

Results flagged for a closer look

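The change with doxycycline was not the same in the 3 lines for several named genes, by the interaction test of edgeR over all genes. Relative to mouse Dux, the luciferase response (a difference of log2 fold changes) was higher by 2.74 for Adgrg1, 2.73 for Enpp2 and 6.33 for Csf2rb. For Bub1 and Kif11 that difference was -2.74 and -2.06. Relative to human DUX4, the luciferase response was higher by 3.67 for Angptl4, 2.60 for Enpp2 and 4.82 for Csf2rb. For Adgrg1, Bub1, Kif11 and Idi1 that difference was -0.93, -2.66, -0.30 and -1.66. Kif11 was nearest to the threshold in this second comparison, with an adjusted p of 0.0290. It did not pass under library size alone (edgeR adjusted p = 0.0702), without doxycycline library 1 (0.131) or 3 (0.0785), or without untreated library 1 (0.0622). Csf2rb had few counts in the human DUX4 line, at 0.112 ± 0.0749 CPM with doxycycline and 1.00 ± 0.0782 CPM without it. Groups of 3 libraries are too small for the search for a library far from the others of its group.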

How the results depend on the processing

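The 450 and 692 genes past 1.5-fold varied little over the 14 alternatives, between 390 and 478 higher and between 616 and 760 lower. Counts of all called genes moved more: 3032 genes were higher in the 6 luciferase libraries alone and 3019 in the same libraries with a replicate block, against 2004, and 1974 and 1973 of the 2004 were among them. Fewer libraries with a smaller spread enter those fits. Whether a shared replicate number means paired cultures is not known. With the replicate block over all libraries 2218 genes were higher and 2387 lower (432 and 684 past 1.5-fold). Leaving out 1 library gave 1543 to 1714 higher and 1809 to 1910 lower genes, 390 to 447 and 616 to 689 past 1.5-fold, and 55 to 62 named genes, against 64, that differ from both other lines. DESeq2 called 1740 higher and 2321 lower. Of the named genes, Tcap, Ifit2, Adgre5, Aldoc, Irs2, Eif1a, Mrps28, Irf9 and Perp lost the call under at least 1 alternative, and none changed sign. The difference from mouse Dux reversed under library size alone for Spg7 (0.21, adjusted p = 0.0162) and Chrnb1 (0.0626, adjusted p = 0.502); the cause was not tested. Counts of calls per gene list stayed within 1.5 times the reported value in 621 recomputations and moved further in 79, and list medians stayed in 340 and moved in 10. Differences between lines could not be fitted in the luciferase libraries alone, nor the mouse Dux difference without its induced libraries.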
